A study of Mus musculus with 5 samples.

Results

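The genes described here are the colony-stimulating factors and their receptors, 8 genes chosen by symbol from the 55250 gene rows of the deposited table. They comprise 4 ligands (Csf1, Il34, Csf2 and Csf3) and 4 receptor chains (Csf3r, Csf2ra, Csf2rb and Csf2rb2). RNA was sequenced from mouse cells that the labels call PMN-MDSCs (polymorphonuclear, myeloid-derived and suppressive), neutrophil-lineage cells that restrain T cells. There were 2 libraries from tumor (replicates 2 and 3) and 3 from lung (replicates 1, 2 and 3), all from mice of WT genotype, with no further allele, agent, time or age in the labels. Each library came from at least 2000000 sorted cells and is stated as 20000000 paired reads. The labels name no sort markers, tumor model or strain, and do not say whether each library is a separate animal, so p-values measure only library-to-library spread, which may be technical.

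Colony-stimulating factors are secreted proteins that drive the production, survival and activation of myeloid cells. G-CSF, encoded by Csf3, acts through the homodimeric receptor Csf3r and is the main driver of neutrophil production. GM-CSF, encoded by Csf2, binds the alpha chain Csf2ra together with the common beta chain Csf2rb, which also serves interleukin-3 and interleukin-5. M-CSF, encoded by Csf1, and interleukin-34, encoded by Il34, share the receptor Csf1r of monocytes and macrophages. In tumor-bearing mice, tumor-derived G-CSF and GM-CSF are known to expand PMN-MDSCs.

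Values were TPM, relative transcript abundances that are corrected for transcript length and share a fixed total. Levels can therefore be set side by side between genes, but the number of reads behind each value is unknown. Differences are tumor minus lung in log2(TPM + 1) with SE. A gene was called when its Benjamini-Hochberg adjusted p from limma, fitted on the 16387 genes averaging 1 TPM or more, was under 0.05 and its difference was at least 1.5-fold. With 3 against 2 libraries an exact permutation test of a single value cannot go below 0.1.

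The tumor libraries went against their label in the markers of leukocytes and epithelia. Ptprc, which encodes the pan-leukocyte protein CD45, was at 18.5 and 75.3 TPM in tumor, against 842, 926 and 959 TPM in lung. The summed TPM of 20 neutrophil markers, Csf3r among them, was 1204 and 4021 in tumor and between 38068 and 64124 in lung. That of 15 epithelial markers was 6789.7 and 6844 in tumor and between 96.2 and 162 in lung, and that of 14 fibroblast markers was 3592 and 1981 in tumor and between 139 and 154 in lung. No marker of these 4 lists was at 0 in both tumor libraries. Macrophage and monocyte markers were split, with 7 of 15 called higher in tumor and 5 lower. The complement genes C1qa, C1qb and C1qc, which tissue macrophages express, rose, C1qa to 137 and 309 TPM in tumor, against 15.6, 6.85 and 6.13 TPM in lung, while Csf1r, Adgre1, Cd68, Ccr2 and the monocyte gene Ly6c2 fell. Markers of other cells were higher in lung. The summed TPM of 12 endothelial markers was 28.7 and 43.5 in tumor and between 275 and 488 in lung, and all 12 were called lower in tumor. That of 15 lymphocyte markers was 7.55 and 15.1 in tumor and between 131 and 293 in lung (6 of 10 tested called lower), and that of 10 alveolar and airway markers was 26.3 and 25.2 in tumor and between 148 and 596 in lung (6 of 9 tested called lower, 1 higher), with Sftpa1 and Scgb3a2 at 0 in both tumor libraries. In these bulk samples fewer cells of a type and less RNA per cell cannot be told apart, and the part that these shifts play in the results below was not tested beyond the ratios to leukocyte genes given there.

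Ligands and receptors went different ways. All 4 receptors were lower in tumor, while among the 3 ligands that could be tested Il34 and Csf3 rose and Csf1 fell. The fourth ligand, Csf2, was under the filter on low values and was listed above 0 in tumor only. Of all tested genes 58.6% were called, 31.6% higher and 27.0% lower, and the median difference of all tested genes was 0.018. In none of the 8 genes did the groups overlap, and no overlap was found for 39.9% (above) and 35.7% (below) of all tested genes. Since many genes behaved in this way, the counts alone set these 8 genes little apart, and the sizes of their differences carry the description.

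**Figure D1:**
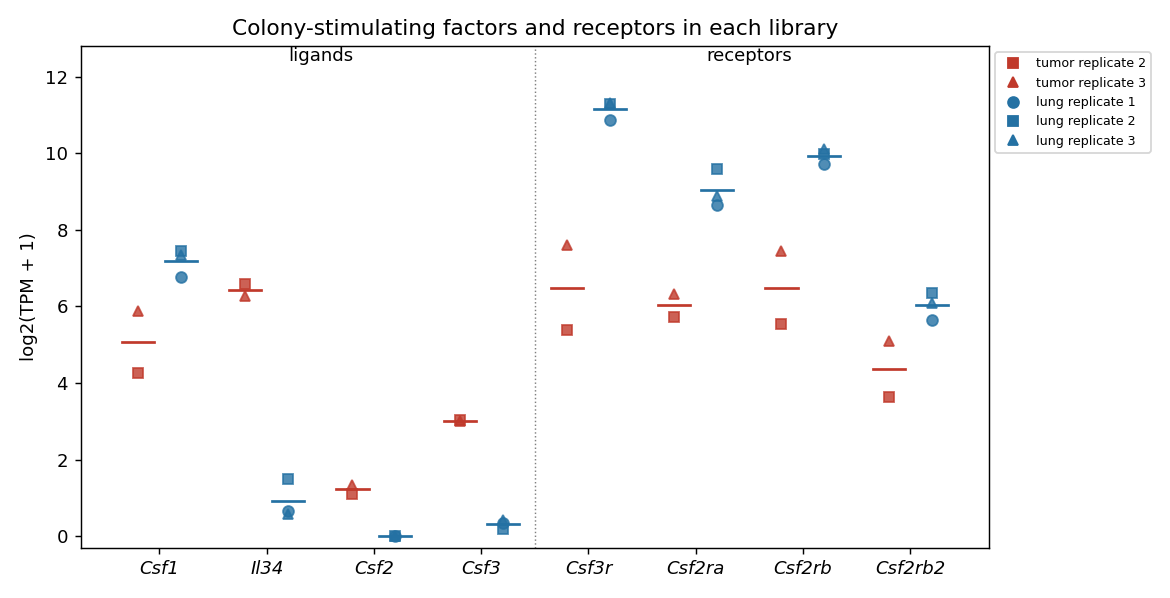
Level of each ligand and receptor as log2(TPM + 1), with tumor libraries in red on the left of each pair and lung libraries in blue on the right; points are libraries, horizontal lines are group means, and marker shape gives the replicate number. Il34, Csf2 and Csf3 lie higher in tumor, and Csf1 and the 4 receptors lie lower in tumor, where the 2 libraries are also farther apart than those of lung for Csf1, Csf3r, Csf2rb and Csf2rb2 but not for Csf2ra.

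Il34, a ligand of Csf1r that keratinocytes and neurons are known to make, had the largest rise of the 8 genes. It was at 95.3 and 76.4 TPM in tumor, against 0.567, 1.82 and 0.506 TPM in lung. Both tumor libraries were high and all lung libraries low, with no overlap. The mean was 88.9-fold higher in tumor, a difference of 5.52 ± 0.34 (limma adjusted p = 0.000985). Il34 ranked 1147 and 1386 among all gene rows by TPM in tumor, against ranks 16749, 12455 and 18304 in lung. Its transcripts lie on chromosome 8 from 110741829 to 110805924, minus strand (GRCm38, GENCODE M21).

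Csf3, the gene for G-CSF, was at 7.15 and 6.98 TPM in tumor, against 0.272, 0.133 and 0.347 TPM in lung. The tumor libraries stood close together and above every lung library. The mean was 28.2-fold higher in tumor, a difference of 2.69 ± 0.24 (limma adjusted p = 0.00146). The log2(TPM + 1) scale holds down the difference of so low a gene, which was 4.41 with a pseudocount of 0.1. Csf2, the gene for GM-CSF, was at 1.15 and 1.54 TPM in tumor and listed at 0 in every lung library. Its mean over the 5 libraries was under 1 TPM, so it was not tested and no fold is given. The antisense gene Gm12223 overlaps Csf2 and was at 0.227 and 0.234 TPM in tumor and listed at 0 in lung. Reads of an overlapping antisense pair cannot be told apart without strand, which the sources do not state.

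Csf1, which encodes M-CSF, was the ligand that fell. It was at 18.0 and 58.1 TPM in tumor, against 108, 174 and 161 TPM in lung. The groups did not overlap, but the tumor libraries were 3.23-fold apart. The mean was 3.88-fold lower in tumor, a difference of -2.12 ± 0.53 (limma adjusted p = 0.0208). The call rested on single libraries, with differences of -1.30 (adjusted p = 0.0628) without tumor replicate 2, -1.99 (adjusted p = 0.0672) without lung replicate 2 and a like value (adjusted p = 0.0624) without lung replicate 3. Set against leukocyte genes, its direction was the opposite, as given below.

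Il34 and Csf3 were higher in tumor, as were the epithelial and fibroblast sums, while the leukocyte genes were lower. Per 1000 TPM of the epithelial sum, Il34 was at 14.0 and 11.2 TPM in tumor, against 3.50, 18.0 and 5.26 TPM in lung, values that overlapped. On the same scale Csf3 was at 1.05 and 1.02 TPM in tumor, against 1.68, 1.31 and 3.61 TPM in lung, with the tumor libraries below. The epithelial sum itself was 56.9-fold higher in tumor. Which cells in the tumor libraries held these transcripts was not tested.

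Csf3r, the G-CSF receptor of neutrophils and their precursors, had the largest fall. It was at 40.4 and 195 TPM in tumor, against 1868, 2514 and 2532 TPM in lung. All lung libraries were far above both tumor libraries, and tumor replicate 3 was 4.81-fold above tumor replicate 2. The mean was 19.6-fold lower in tumor, a difference of -4.67 ± 0.67 (limma adjusted p = 0.00391). By TPM it ranked 2804 and 506 in tumor, against ranks 44, 31 and 23 in lung. Csf3r lies on chromosome 4 from 126024550 to 126044440, plus strand (GRCm38, GENCODE M21), and 24.4% of the 31-base words of its coding transcripts also occur in transcripts of other genes, most of them in a processed pseudogene, so its value carries some uncertainty.

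Csf2ra, the ligand-specific alpha chain of the GM-CSF receptor, was at 52.0 and 79.6 TPM in tumor, against 401, 774 and 473 TPM in lung. Its tumor libraries were only 1.53-fold apart, the smallest gap among the 4 receptors. The mean was 8.35-fold lower in tumor, a difference of -3.02 ± 0.36 (limma adjusted p = 0.00235). Csf2rb, the signalling beta chain, was at 45.2 and 173 TPM in tumor, against 847, 1003 and 1107 TPM in lung. The groups did not overlap, and the mean was 9.04-fold lower in tumor, a difference of -3.45 ± 0.58 (limma adjusted p = 0.00592). Csf2rb was 0.869 and 2.17 times as high as Csf2ra in tumor, against 2.11, 1.30 and 2.34 times in lung, so the ratio of beta to alpha chain overlapped between the groups.

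Csf2rb2, a second beta chain that in the mouse serves interleukin-3 alone, was the lowest of the 4 receptors and fell least. It was at 11.4 and 33.0 TPM in tumor, against 48.6, 80.4 and 67.6 TPM in lung. The groups did not overlap, and the mean was 2.96-fold lower in tumor, a difference of -1.67 ± 0.49 (limma adjusted p = 0.0334). The call ended when single libraries were left out, tumor replicate 2 (-0.94, adjusted p = 0.117), lung replicate 2 (-1.51, adjusted p = 0.0963) or lung replicate 3 (-1.63, adjusted p = 0.0870). It also ended when all genes were tested whatever their level (adjusted p = 0.0648) and after leaving out mitochondrially encoded genes (adjusted p = 0.0500).

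The pair of beta chains shifted in make-up. Csf2rb2 held 20.1% and 16.0% of their joint TPM in tumor, against 5.43%, 7.43% and 5.76% in lung, with no overlap. The genes are neighbours on chromosome 15 with 20030 bases between them, Csf2rb2 from 78282507 to 78305721 on the minus strand and Csf2rb from 78325752 to 78353847 on the plus strand (GRCm38, GENCODE M21). Of the 31-base words of Csf2rb coding transcripts 26.2% also occur in Csf2rb2, and of those of Csf2rb2 29% occur in Csf2rb, so the authors' software had to divide some reads between the pair. Summed to a single row, the beta chains differed by -3.26 (limma adjusted p = 0.00637), which does not depend on that division.

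**Figure D2:**
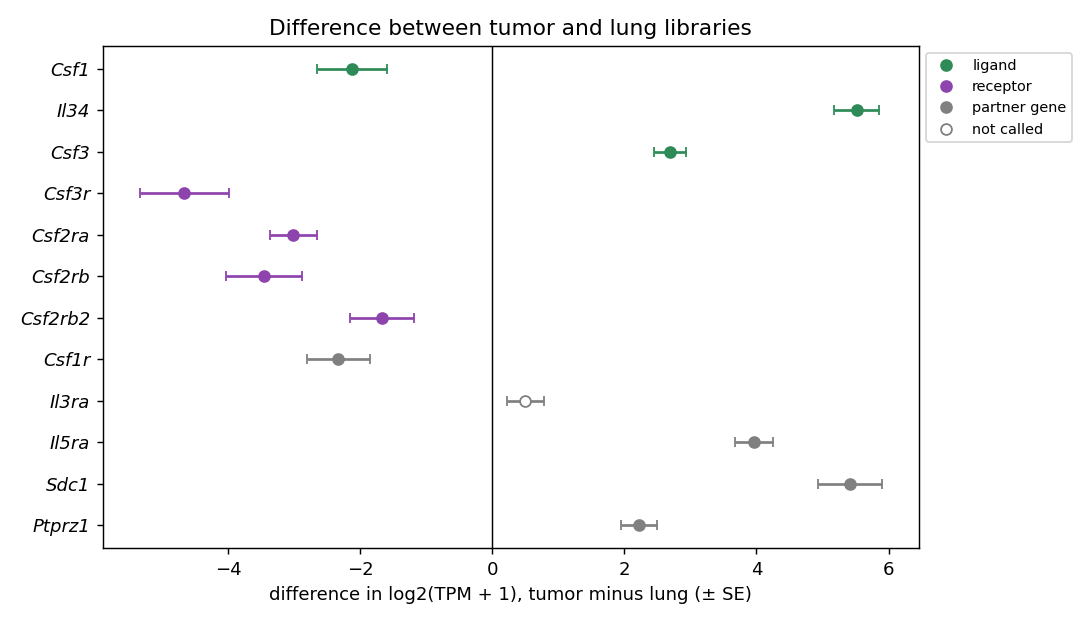
Difference in log2(TPM + 1) between tumor and lung (tumor minus lung) with SE for the tested ligands (green), receptors (purple) and partner genes (grey); the open circle marks Il3ra, which was not called. Il34 stands farthest to the right at 5.52 and Csf3r farthest to the left at -4.67.

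Promoter sequence is shown for the receptors that fell together and for Csf1, the ligand that fell with them. The set of RefSeq promoter windows at hand (GRCm38.p6) covered 5 of the 8 genes, Csf1, Csf2, Csf3r, Csf2ra and Csf2rb2. It held no window for Csf2rb, Csf3 and Il34. Each line holds the 250 bases before the start, written in the direction of the gene. Capitals mark matches on either strand to any of 4 motifs. These are GAGGAA, the core bound by the myeloid factor PU.1, an NF-kB form (GGG and CC with any 5 bases between), a C/EBP form (TTGCNNAA) and the AP-1 site (TGANTCA), and matches can overlap. The windows are chr4:126024409-126024658 (plus strand) for Csf3r, chr19:61228419-61228668 (minus) for Csf2ra, chr15:78305722-78305971 (minus) for Csf2rb2 and chr3:107760470-107760719 (minus) for Csf1.
Csf3r: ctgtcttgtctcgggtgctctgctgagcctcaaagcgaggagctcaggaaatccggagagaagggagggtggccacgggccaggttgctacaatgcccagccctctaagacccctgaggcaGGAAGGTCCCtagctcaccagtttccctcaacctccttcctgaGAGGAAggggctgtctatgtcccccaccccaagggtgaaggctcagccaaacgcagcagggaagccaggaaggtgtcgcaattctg
Csf2ra: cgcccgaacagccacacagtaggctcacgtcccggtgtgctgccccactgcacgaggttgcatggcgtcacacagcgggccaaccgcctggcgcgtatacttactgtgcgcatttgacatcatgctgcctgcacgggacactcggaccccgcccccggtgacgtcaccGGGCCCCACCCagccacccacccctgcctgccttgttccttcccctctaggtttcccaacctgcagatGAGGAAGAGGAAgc
Csf2rb2: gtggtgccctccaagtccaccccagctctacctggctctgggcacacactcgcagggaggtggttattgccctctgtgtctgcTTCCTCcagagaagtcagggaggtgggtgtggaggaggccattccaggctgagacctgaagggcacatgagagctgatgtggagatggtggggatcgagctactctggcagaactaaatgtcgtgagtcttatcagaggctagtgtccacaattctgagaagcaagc
Csf1: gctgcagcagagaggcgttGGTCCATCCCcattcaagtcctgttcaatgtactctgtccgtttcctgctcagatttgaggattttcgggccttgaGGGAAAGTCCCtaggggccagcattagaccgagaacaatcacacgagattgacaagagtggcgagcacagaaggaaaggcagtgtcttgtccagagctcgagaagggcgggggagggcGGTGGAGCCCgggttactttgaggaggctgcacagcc
GAGGAA occurred once in Csf3r, starting 86 bases before the start site, at 2 places in Csf2ra (14 and 8 bases before it) and once in Csf2rb2 (167 bases before it, on the other strand). It was not found in the windows of Csf1 and Csf2. Among 32851 promoter windows of the same length 23.3% held GAGGAA. The NF-kB form occurred in Csf3r, Csf2ra and Csf1, and 45.8% of all windows held it. The C/EBP form (9.56% of all windows) and the AP-1 site (6.75%) gave 1 match in all, a C/EBP form in Csf2. The Csf2 window (chr11:54249900-54250149, minus strand) does not reach the GENCODE M21 start of that gene at 54249667. The bases between them were not searched. The Csf3r and Csf2ra windows run past the GENCODE M21 starts of those genes, at 126024550 and 61228429. The part of each window nearest the RefSeq start thus lies inside the gene as GENCODE M21 draws it. That part holds the GAGGAA match of Csf3r and the nearer match of Csf2ra, and the farther match of Csf2ra spans the GENCODE start. All distances given are from the RefSeq start. These matches describe the letters only.

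The genes that share ligands or chains with these 8 also split. Csf1r, the receptor of Csf1 and Il34, was at 49.4 and 149 TPM in tumor, against 459, 396 and 459.7 TPM in lung, a difference of -2.33 ± 0.48 (limma adjusted p = 0.0110). Csf1 fell together with this receptor, and Csf1 was 0.364 and 0.390 times as high as Csf1r in tumor, against 0.237, 0.439 and 0.350 times in lung, which overlapped. With Il34 added, the ligands were 2.29 and 0.902 times as high as Csf1r in tumor, against 0.238, 0.443 and 0.351 times in lung, with no overlap.

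Sdc1 and Ptprz1, described as further binding partners of interleukin-34 and known from epithelial and neural cells, rose with it. Sdc1 was at 175 and 152 TPM in tumor, against 6.10, 1.43 and 2.30 TPM in lung (5.41 ± 0.48, limma adjusted p = 0.00146). Ptprz1 was low throughout, at 4.50 and 3.79 TPM in tumor, against 0.125, 0.0549 and 0.134 TPM in lung (2.22 ± 0.27, limma adjusted p = 0.00253).

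The alpha chains that pair with the beta chains did not follow Csf2ra. Il5ra, the alpha chain of the interleukin-5 receptor of eosinophils, was at 32.7 and 35.5 TPM in tumor, against 1.14, 0.749 and 2.06 TPM in lung. It was 25.9-fold higher in tumor (3.96 ± 0.29, limma adjusted p = 0.00114). Of 8 tested markers of basophils, mast cells and eosinophils 4 were called lower in tumor (Siglecf, Prg2, Gata2 and Hdc) and the mast cell gene Tpsb2 higher. The 12 listed markers summed to 48.5 and 166 TPM in tumor and to between 1463 and 1959 TPM in lung. Hdc had the profile nearest to that of Csf3r among the genes compared below. Without Hdc the markers summed to 17.8 and 16.1 TPM in tumor and to between 77.9 and 92.2 TPM in lung. Il3ra, the alpha chain of the interleukin-3 receptor, was at 13.8 and 7.52 TPM in tumor, against 6.60, 7.44 and 6.83 TPM in lung, and was not called (0.50 ± 0.28, limma adjusted p = 0.179). It passed as higher without tumor replicate 3 (0.90, adjusted p = 0.0389). Il5 was listed at 0 in every library and Il3 in all but tumor replicate 3, where it was at 0.0859 TPM.

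Summed over genes, the ligands did not separate the groups but changed in kind, while the receptors dropped. The 4 ligands summed to 122 and 143 TPM in tumor, against 109, 176 and 162 TPM in lung, which overlapped. Il34 made up 78.4% and 53.4% of that sum in tumor, against 0.518%, 1.04% and 0.313% in lung, and Csf1 made up 14.8% and 40.6% in tumor, against 99.2%, 98.9% and 99.5% in lung. The 4 receptors summed to 149 and 479.97 TPM in tumor, against 3165, 4371 and 4179 TPM in lung. The receptor sum thus exceeded the ligand sum 1.23-fold and 3.36-fold in tumor, against 29.0-fold, 24.9-fold and 25.8-fold in lung. Csf1r, the receptor of Csf1 and Il34, is not among the 4 receptors summed. This ratio therefore does not set most of the ligand sum against its own receptor.

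Within the receptor sum Csf3r held 27.2% and 40.5% in tumor, against 59.0%, 57.5% and 60.6% in lung. Csf3r was 0.896 and 1.13 times as high as Csf2rb in tumor, against 2.20, 2.51 and 2.29 times in lung. Csf3r was thus the highest receptor in every lung library and in tumor replicate 3, while Csf2ra was the highest in tumor replicate 2. For the matched pair of G-CSF and its receptor, Csf3 stood at 17.7 and 3.59 TPM per 100 TPM of Csf3r in tumor, against 0.0145, 0.00529 and 0.0137 TPM in lung. No test is given for these sums and ratios, since the members are not replicates.

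**Figure D3:**
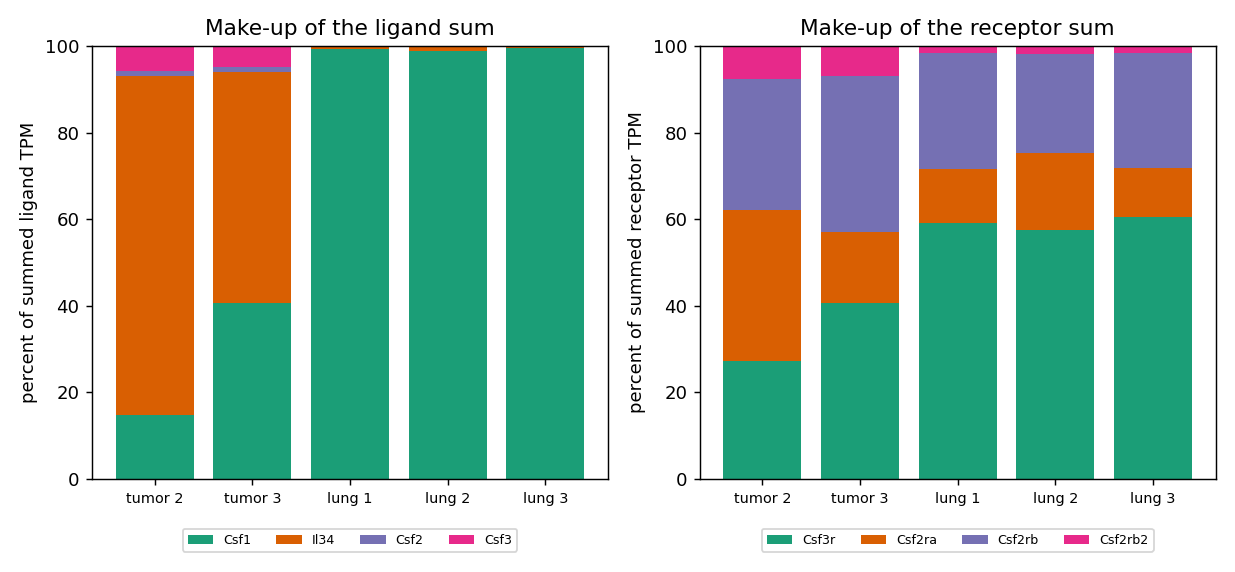
Percent of the summed TPM of the 4 ligands (left panel) and of the 4 receptors (right panel) held by each gene, one bar per library, tumor libraries first. Csf1 holds nearly the whole ligand bar in lung and Il34 the larger part in tumor, and the Csf3r part of the receptor bar is smaller in both tumor libraries.

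Set against Ptprc, the receptors came apart. Csf3r was 2.19 and 2.58 times as high as Ptprc in tumor, against 2.22, 2.71 and 2.64 times in lung, so the groups overlapped and the fall of Csf3r was about as large as that of Ptprc. Csf2rb was 2.44 and 2.30 times as high as Ptprc in tumor, against 1.01, 1.08 and 1.15 times in lung. Csf2ra was at 2.81 and 1.06 times Ptprc in tumor, against 0.476, 0.836 and 0.493 times in lung. Csf2rb2 was at 0.615 and 0.438 times Ptprc in tumor, against 0.0578, 0.0868 and 0.0705 times in lung. Relative to this leukocyte gene, the GM-CSF and interleukin-3 receptor chains were therefore higher in tumor in all libraries and Csf3r was not. Centred on Ptprc, 15153 of 16387 tested genes were called higher, so this position does not set the chains apart. Csf2rb was not called in that setting (1.11, limma adjusted p = 0.145).

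Csf1 and its receptor lay on the same side. Csf1 was at 0.974 and 0.772 times Ptprc in tumor, against 0.129, 0.187 and 0.168 times in lung, and Csf1r at 2.67 and 1.98 times in tumor, against 0.545, 0.427 and 0.479 times in lung. The choice of leukocyte reference moved these values. Ptprc fell by 4.56 in log2(TPM + 1), whereas the median of 40 pan-leukocyte genes fell by 3.45. Against the mean log2(TPM + 1) of those 40 genes, Csf3r stood at 1.09 and 1.93 above in tumor and at 2.51, 2.91 and 2.89 above in lung, with no overlap. On that scale Csf2rb and Csf2ra overlapped between the groups, while Csf2rb2 (-0.66 and -0.60 in tumor, against -2.73, -2.04 and -2.31 in lung) and Csf1 (-0.04 and 0.20 in tumor, against -1.59, -0.94 and -1.08 in lung) remained higher in tumor. Centring on the 40 genes moved the median difference of all tested genes to 3.42 and called 85.4% of genes higher and 0.696% lower, so only the position of these genes relative to leukocyte genes can be read from it.

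**Figure D4:**
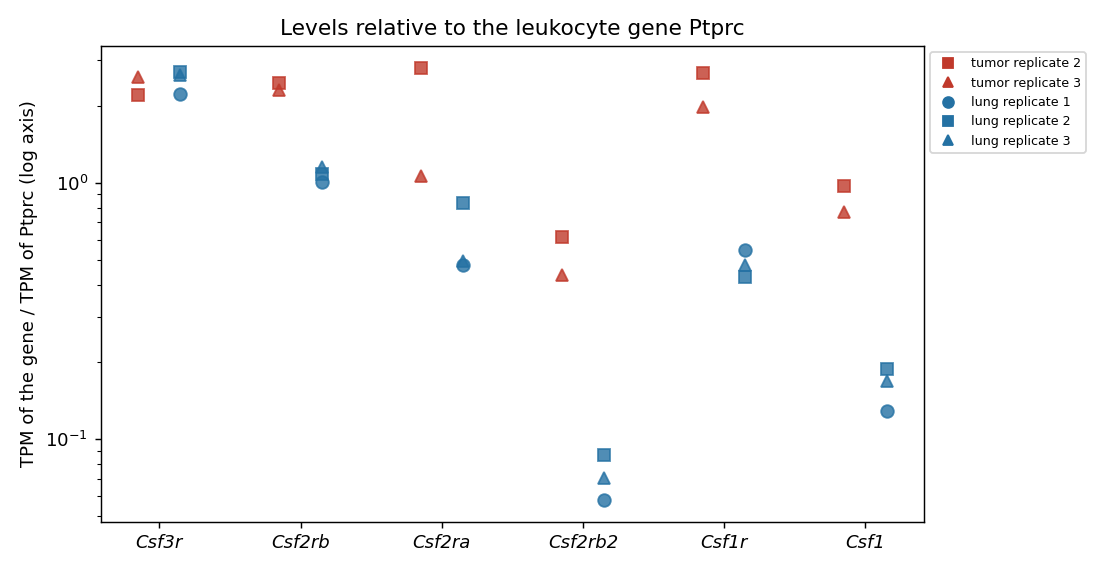
TPM of each gene divided by TPM of Ptprc in the same library (log axis), tumor libraries in red on the left and lung libraries in blue on the right; points are libraries. The Csf3r points of the groups overlap, and those of Csf2rb, Csf2ra, Csf2rb2, Csf1r and Csf1 lie higher in tumor.

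The tumor libraries differed from each other in the same genes. Tumor replicate 3 was above tumor replicate 2 by 4.81-fold for Csf3r, 3.83-fold for Csf2rb, 2.90-fold for Csf2rb2, 1.53-fold for Csf2ra, 3.23-fold for Csf1 and 3.02-fold for Csf1r. It was also above by 4.07-fold for Ptprc, 2.30-fold for the pan-leukocyte sum and 3.34-fold for the neutrophil sum. The other ligands did not share this gap, at 0.802-fold for Il34, 0.977-fold for Csf3 and 1.34-fold for Csf2, beside 1.01-fold for the epithelial sum and 0.552-fold for the fibroblast sum. The gap for Csf1 thus lay among those of Csf3r, Csf2rb, Csf2rb2 and Ptprc, whereas that for Csf2ra was nearer to that for Csf2, and no test set these gaps against each other.

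Genes that carry the signal of these receptors were mostly lower in tumor. Of 29 listed signalling genes 22 fell and 3 rose, with a median difference of -2.24, beside 27.0% and 31.6% of all tested genes. Centred on the 40 pan-leukocyte genes 0 were lower and 14 higher (median 1.17), and on Ptprc 0 were lower and 17 higher. Among all tested genes 85.4% were called higher in the former setting (median 3.42) and 15153 of 16387 in the latter. The listed genes were thus called higher less often than tested genes as a whole. The kinase gene Jak1 was at 32.4 and 40.8 TPM in tumor, against 175, 204 and 214 TPM in lung (-2.40, limma adjusted p = 0.00119). Stat5b, a transcription factor gene downstream of the GM-CSF receptor, was at 9.13 and 12.9 TPM in tumor, against 60.5, 73.1 and 79.4 TPM in lung (-2.59, limma adjusted p = 0.00134). The myeloid kinase gene Fes fell by 3.15 (limma adjusted p = 0.00125). The risers, Dok2, Ptpn11 and Shc1, were adaptor and phosphatase genes with smaller differences of 1.73, 0.64 and 0.60, and the count called higher was 0 without tumor replicate 3, 1 without tumor replicate 2 or lung replicate 1 and 2 without either other lung library. Of the listed genes 5 (Lyn, Vav1, Ptpn6, Inpp5d and Tyrobp) were also on the pan-leukocyte list, whose own median was -3.45.

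Of 20 listed genes known to respond to these cytokines or to keep myeloid cells alive, 15 fell and 1 rose. Their median was -2.46, and of all tested genes 27.0% were called lower and 31.6% higher. Centred on the pan-leukocyte genes 1 was lower and 8 higher (median 0.95), and on Ptprc 0 were lower and 15 higher. The shares called higher over all tested genes were 85.4% in the former setting and 15153 of 16387 in the latter. Mcl1, a survival gene of neutrophils, was at 128 and 255 TPM in tumor, against 1045, 1325 and 1188 TPM in lung (-2.70, limma adjusted p = 0.0025). Junb fell by 2.33 and Cebpb fell by 2.86 (limma adjusted p = 0.00182 and 0.00198). Mmp8, the neutrophil collagenase gene, was at 2.12 and 13.5 TPM in tumor, against 263, 391 and 263 TPM in lung (limma adjusted p = 0.00258). Along with Mmp9 and Cd177 of this list, it was also on the neutrophil list, whose 18 tested genes all fell. The riser was Socs2, a feedback inhibitor gene, at 13.3 and 14.8 TPM in tumor, against 6.32, 3.86 and 8.62 TPM in lung (1.11, limma adjusted p = 0.0343). No listed gene was called higher without tumor replicate 2, tumor replicate 3 or lung replicate 1. Cish, a direct STAT5 target, was at 6.87 and 19.4 TPM in tumor, against 13.04, 4.64 and 7.06 TPM in lung and was not called (limma adjusted p = 0.432).

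Among 9 tested genes of transcription factors that act on these receptor genes, 5 fell and 1 rose. Over all tested genes the shares were 27.0% and 31.6%. Centred on the pan-leukocyte genes 0 were lower and 5 higher, and on Ptprc 0 were lower and 7 higher. In these settings 85.4% and 15153 of 16387 of all tested genes were called higher. Spi1, which encodes PU.1, was at 24.3 and 71.3 TPM in tumor, against 564, 648 and 557 TPM in lung (-3.78, limma adjusted p = 0.00247). Cebpd, of the C/EBP family, fell by 2.53 (limma adjusted p = 0.00128), as did its relative Cebpb given above. Klf5, an epithelial and myeloid factor gene, rose to 28.0 and 25.3 TPM in tumor, against 4.77, 5.80 and 3.68 TPM in lung (2.28, limma adjusted p = 0.00162). Runx1 was at 68.4 and 72.3 TPM in tumor, against 49.4, 77.3 and 80.2 TPM in lung and was not called (limma adjusted p = 0.851).

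Other cytokine receptors served as the closest group for comparison. Of 28 tested, 21 fell and 3 rose (Il1r1, Osmr and Il18r1), with a median difference of -1.69, beside -3.23 over the 4 receptors described here. All tested genes were called lower in 27.0% and higher in 31.6% of cases. Centred on the pan-leukocyte genes 0 of the 28 were called lower and 17 higher (median 1.71, beside 0.17 over the 4 receptors). On Ptprc 0 were lower and 23 higher. These settings called 85.4% and 15153 of 16387 of all tested genes higher. Kit, the stem cell factor receptor, was at 1.19 and 1.54 TPM in tumor, against 29.9, 22.5 and 21.7 TPM in lung (-3.43, limma adjusted p = 0.000999). Tnfrsf1a fell by 2.84, Crlf2 fell by 2.10 and Il6ra fell by 3.23 (limma adjusted p = 0.00101, 0.00126 and 0.00182). On the TPM scale receptors outside the colony-stimulating factor family thus fell as well, and no test set the groups of receptors against each other.

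Among 10 tested ligands of other haematopoietic receptors 3 rose, a share near the 31.6% of all tested genes, and 5 fell, beside 27.0%. The count called lower was 3 without tumor replicate 3, 2 with a filter of 5 TPM and 0 with the replicate block. Centring on the pan-leukocyte genes or Ptprc also gave 0 lower, with 7 and 10 called higher. Of all tested genes 85.4% and 15153 of 16387 were higher in those 2 settings. Tslp, an epithelial cytokine gene, was at 41.8 and 31.1 TPM in tumor, against 0.102, 0.412 and 0 TPM in lung (limma adjusted p = 0.000901). Kitl, the gene for stem cell factor, was at 56.0 and 80.5 TPM in tumor, against 18.7, 8.87 and 13.7 TPM in lung (2.26, limma adjusted p = 0.00478). Lif rose by 2.79, and Osm, a cytokine gene of neutrophils and macrophages, fell by 2.62 (limma adjusted p = 0.00127 and 0.00724).

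The genes whose profile over the 5 libraries was most like each member were found by the root-mean-square distance between centred log2(TPM + 1) profiles. Only tested genes were compared, leaving out the other members and genes with provisional symbols (Gm numbers, Rik and clone numbers). For Csf3r these were Hdc, which encodes histidine decarboxylase, Myo1f and Itgal, the integrin alpha chain of LFA-1, at distances of 0.0727, 0.136 and 0.139. For Csf2rb they were Ggt5, Kctd12 and Trim30a (0.0432 to 0.084), for Csf2ra Spatc1, Otud7a and Plk2 (0.109 to 0.156), and for Csf2rb2 Pfkfb3, Tbc1d2b and Cfap100 (0.126 to 0.158). The profile of Csf1 was closest to Gpr55, Sp1 and Adgrg3 (0.110 to 0.118). Il34 was closest to Tpm2, a tropomyosin gene, the imprinted RNA H19 and Tslp (0.226 to 0.306), and Csf3 to Strc, Eomes and Mboat2 (0.0511 to 0.0619). Each comparison rests on 5 libraries and mainly on the gap between the groups.

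In the authors' deposited table only Csf3 of the 8 genes was under a false discovery rate of 0.05, at 0.0407. The rate in the authors' deposited table was 0.0855 for Csf2rb, 0.0984 for Csf3r, 0.195 for Csf1, 0.217 for Csf2ra, 0.250 for Il34, 0.257 for Csf2rb2 and 0.279 for Csf2. The deposited fold changes of the 7 genes with a number there differed by under 0.01 from the natural log of tumor mean over lung mean, so the sizes are shared and the tests differ.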

How the data were processed

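The authors ran Salmon 0.9.1 against GENCODE mouse M24 transcripts, per the design text, and deposited TPM per gene for 5 libraries, with p-values and false discovery rates of their own comparison. Library preparation beyond the kit and the company is not stated. The authors' deposited p-values were used only as a description. The members and gene lists were chosen with earlier results of these data known. Of 55276 rows, 26 held spreadsheet dates in place of symbols (0.0650% to 0.0826% of TPM) and were left out. TPM keeps no depth, so no counting error or detection limit is given.

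The test was limma 3.58.1 in R 4.3.3 (empirical Bayes with intensity trend, two-sided) on log2(TPM + 1) of all 5 libraries, for the 16387 genes averaging 1 TPM or more, adjusted by Benjamini-Hochberg over them. The fit was tested on simulated data. Named genes were the 8 members, their partner genes, up to 4 tested genes with the smallest p in each pathway list and the 3 nearest profiles per member. A gene that this rule names is not reported here. Dok2, Ptpn11, Shc1, Socs2, Cish, Runx1, Il1r1, Osmr, Il18r1, Gm12223 and the cell type markers other than Ptprc were named after their values were seen. Coordinates are GENCODE M21 on GRCm38, the genome of M24. Words of 31 bases were compared between M21 transcripts. Alternatives, 20 in all, changed the pseudocount, filter, scaling, fit, fold limit, block or libraries. Of these, 2, centring on Ptprc and on neutrophil genes, were chosen after seeing the data.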

Additional observations from a re-analysis of the deposited data

How the results depend on the processing

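Il34 and Csf3 kept their direction and call in every setting that gave a value, and Csf3r, Csf2ra and Csf2rb in all but those that centre libraries on leukocyte genes, where Csf3r stayed lower on the pan-leukocyte genes (-1.26). Csf3 could not be tested with a filter of 5 TPM, which left 1 ligand called higher. With no filter Csf2 also passed as higher (limma adjusted p = 0.00511), as did 5067 of the 34930 genes in that setting. Its lung values, all listed at 0, add no spread to that test, and its tumor values are low. Leaving out 1 library gave 3314 to 4817 genes called higher (5178 with all) and 2900 to 4134 called lower (4431 with all), 0 to 1 ligands lower and 3 to 4 receptors lower. Without tumor replicate 2 the counts were 3314 and 2900. Numbers 2 and 3 occur in both groups. Deviations from the group mean correlated across genes at r = 0.00343 and 0.0833 for same-numbered libraries, against -0.0833 and -0.00343 for crossed numbers. The 2 tumor libraries deviate by equal and opposite amounts, so these values mirror each other. This check therefore cannot decide whether same-numbered libraries were paired. With the number as a replicate block, 0 ligands were lower, and Csf1 (-2.33, adjusted p = 0.0642) and Csf2rb2 (-1.87, adjusted p = 0.0887) were not called.

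Centring on the 40 pan-leukocyte genes called 13997 genes higher and 114 lower, 0 ligands lower, and 1 receptor each higher and lower. Differences became 1.28 for Csf1, 1.07 for Csf1r, 0.39 for Csf2ra and 1.73 for Csf2rb2. On Ptprc the counts were 15153 and 12, with 0 ligands lower, 2 receptors higher and 0 lower, and differences of 2.44 for Csf1, 2.23 for Csf1r, 1.54 for Csf2ra, 1.11 for Csf2rb and 2.89 for Csf2rb2. On the 19 neutrophil genes other than Csf3r they were 14660 and 40, with 0 ligands lower, 1 receptor higher and 0 lower, and differences of 1.79, 1.58, 0.90, 0.46 and 2.24 for the same genes. By construction centring subtracts the fall of the chosen genes and adds an error shared by all genes, so these calls are not independent tests. The unknown number of reads per gene leaves the precision of Csf2 and Csf3 resting on 2 tumor libraries.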
